A study of Mus musculus with 6 samples.

Results

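The genes described here are 34 mouse genes of glycolysis and lactate transport, chosen by symbol: 2 glucose transporters, the enzymes of each glycolytic step with their isozymes, 4 regulators of phosphofructokinase, lactate dehydrogenase, 2 lactate transporters, the 4 pyruvate dehydrogenase kinases and the catalytic subunit of pyruvate dehydrogenase that they act on. All 34 were found among the 24091 genes of the count table, and 33 of them were among the 15050 genes with enough counts to be tested. The exception was Pgam2, the muscle phosphoglycerate mutase, which held 1 count over all 6 libraries. RNA was sequenced from 2 libraries each of 12Q prostate tumors, 48Q prostate tumors and WT normal prostate. The 12Q tumors came from male mice with a humanised allele that encodes 12 glutamines in a polyglutamine tract, 1 Ctnnb1 (β-catenin) allele with a conditional exon 3, and the PBCre-4 transgene. The 48Q tumors came from males with 48 glutamines in that tract and the same Ctnnb1 allele and transgene. WT mice carried none of these alleles.

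PBCre-4 expresses Cre recombinase from a probasin promoter, which is active in prostate epithelium, so exon 3 is removed there and the stabilised β-catenin is made by epithelial cells. No tumor-free group with these alleles was included, so effects of the alleles and of tumor growth cannot be told apart. The labels used here give no ages and leave unsaid whether the 2 libraries of a group are 2 animals, so the p-values reflect the spread between libraries and that spread may be technical. In bulk libraries such as these, fewer cells of a type and less RNA per cell cannot be told apart.

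Glycolysis splits glucose into pyruvate in the cytosol and yields ATP and NADH without oxygen. Pyruvate then either enters the mitochondria, where the pyruvate dehydrogenase complex acts on it, or is reduced to lactate by lactate dehydrogenase. Lactate leaves the cell through monocarboxylate transporters. Most steps have several isozymes whose use differs between tissues, and many tumors favour lactate production even where oxygen is present. Prostate epithelium is known for secreting citrate rather than burning it, so its carbon metabolism is unusual among normal tissues.

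Most steps of the pathway were more abundant in 12Q tumors than in either of the other groups, while 1 of these genes was called in 48Q tumors against WT prostate. In 12Q against WT, 16 of 33 tested members were higher and 1 was lower at an edgeR adjusted p under 0.05, beside 11.2% of all tested genes called higher and 11.2% called lower. The 16 were Hk1, Hk2, Gpi1, Pfkl, Pfkp, Pfkfb3, Aldoa, Aldoc, Tpi1, Pgk1, Pgam1, Pkm, Pklr, Ldha, Slc16a3 and Pdk1, and the lower one was Eno2. The 16 higher genes are 48.5% of the tested members, and the median log2 fold change was 1.52 over the members and -0.01 over all genes. In 48Q against WT, Slc16a3 was the 1 member called higher, which is 3.03% of the members beside 3.95% of all genes, and none was called lower by edgeR beside 1.23% of all genes. At an unadjusted edgeR p under 0.05, 7 members were higher and 3 lower in that comparison, beside 14.9% and 9.99% of all genes. DESeq2 called 5 members higher and 1 lower, beside 10% and 6.05% of all genes it tested. The median log2 fold change in 48Q against WT was 0.02 over the members and 0.02 over all genes.

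In 12Q against 48Q, 12 members were higher (36.4%, beside 1.01% of all genes), namely Gpi1, Pfkl, Pfkp, Aldoa, Aldoc, Tpi1, Pgk1, Pgam1, Pkm, Ldha, Slc16a3 and Pdk1. None was called lower by edgeR, beside 3.16% of all genes. At an unadjusted edgeR p under 0.05, 17 were higher and 3 lower, beside 10.4% and 15.9% of all genes. DESeq2 called the same numbers, beside 5.84% and 9.96% of all genes it tested. The median log2 fold change of 12Q over 48Q was 1.42 over the members and 0 over all genes. The comparisons of 12Q and 48Q with WT share their WT libraries, so only the direct comparison of 12Q with 48Q tests a difference between the tumor genotypes.

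**Figure D1:**
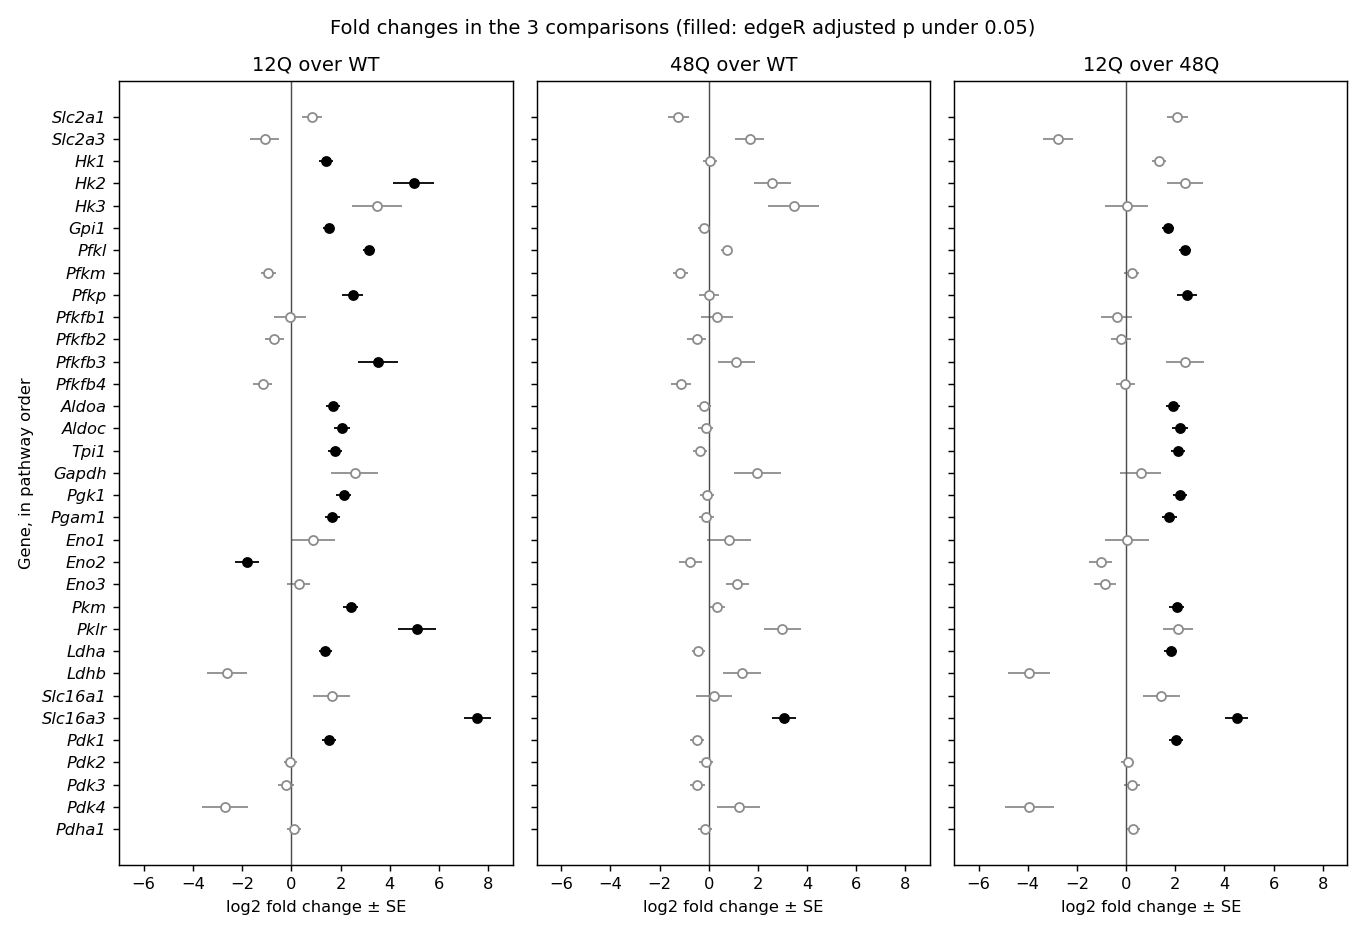
Log2 fold changes (x axis) of the 33 tested genes (y axis, in pathway order) for 12Q over WT, 48Q over WT and 12Q over 48Q. Points are edgeR estimates, bars are ± 1 SE, and filled points have an adjusted p under 0.05. Filled points lie to the right of 0 for 16 genes in 12Q over WT and 12 genes in 12Q over 48Q, and for Slc16a3 alone in 48Q over WT.

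Counts summed over the 34 genes made up 0.615% and 0.790% of all counts in the 12Q libraries, 0.268% and 0.288% in the 48Q libraries, and 0.194% and 0.191% in the WT libraries. Levels below are CPM, each count relative to the library total after TMM scaling (edgeR's trimmed mean of M-values), which brings the bulk of genes to a common level. On that scale the members summed to 6012 and 6985 CPM in 12Q tumors, 2212 and 2323 CPM in 48Q tumors, and 2733 and 2353 CPM in WT prostate. The 12Q libraries were highest on both measures. The 48Q libraries were above WT as a share of counts and below WT on the scaled measure, so no direction of the summed level is given for 48Q against WT. A single gene, 9530053A07Rik, took 17.4% and 22.8% of all counts in the WT libraries. Without TMM, on plain library totals, the median over all genes of the log2 fold change moved to 0.48 in 12Q against WT, 0.71 in 48Q against WT, and -0.19 for 12Q over 48Q, and that of the members to 2.03, 0.69 and 1.29 in the same order.

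**Figure D2:**
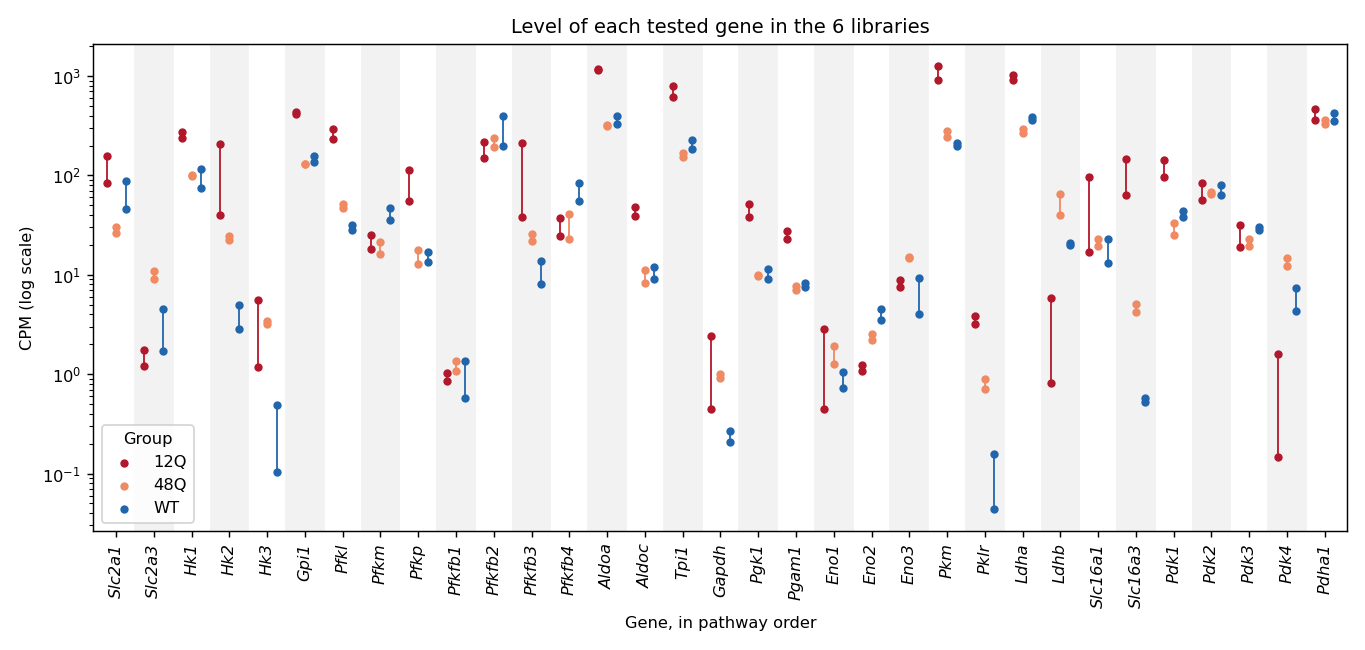
CPM on a log axis (y) of the 33 tested genes (x, in pathway order) in each of the 6 libraries. Points are single libraries and lines join the 2 libraries of a group. From Gpi1 to Pkm most 12Q pairs lie above both other pairs, while Ldhb and Pdk4 lie below them.

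Library totals ranged from 26416181 to 28559546 counts, and 3 counts in a library were worth 0.0856 to 0.157 CPM. Cell type markers moved with the groups. The counts of called markers below stand beside the shares of all tested genes that edgeR called. These were 11.2% higher and 11.2% lower in 12Q against WT. They were 3.95% and 1.23% in 48Q against WT, and 1.01% and 3.16% in 12Q against 48Q. Luminal epithelium markers summed to 11060 and 8856 CPM in 12Q tumors, 4486 and 4513 CPM in 48Q tumors, and 13930 and 7159 CPM in WT prostate. None of the 7 was called by edgeR in any comparison. At an unadjusted p under 0.05, 3 were higher in 12Q against 48Q and 2 lower in 48Q against WT, and DESeq2 called those same numbers. Beside them were 10.4% and 9.99% of all genes at that p, and 5.84% and 6.05% by DESeq2. In 12Q tumors 5 of 6 basal epithelium markers were lower than in WT and 4 were lower than in 48Q tumors. Of 6 prostate secretion genes, Spink1 and Sbp were at 0 to 1 counts in both 12Q and both WT libraries, and Msmb was below 3 CPM in every library. Tgm4 had 14540 and 598 CPM in 12Q tumors, 9655 and 7509 CPM in 48Q tumors, and 68610 and 50100 CPM in WT prostate. Pbsn (probasin) had 3.33 and 5.14 CPM in 12Q tumors, 3954 and 2248 CPM in 48Q tumors and 28210 and 16140 CPM in WT prostate. So the luminal markers of prostate epithelium were present in every library, and the secretory marker Pbsn was lowest in the 12Q tumors.

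Smooth muscle markers summed to 56.5 and 56.5 CPM in 12Q tumors, 917 and 330 CPM in 48Q tumors, and 2454 and 6267 CPM in WT prostate, with 9 of 9 lower in 12Q against WT, 3 of 9 lower in 48Q against WT and 5 of 9 lower in 12Q against 48Q. Fibroblast markers summed to 156 and 425 CPM in 12Q tumors, 1063 and 889 CPM in 48Q tumors, and 612 and 675 CPM in WT prostate. Macrophage markers summed to 251 and 286 CPM in 12Q tumors, 339 and 331 CPM in 48Q tumors, and 93.6 and 87.2 CPM in WT prostate. Stromal muscle was therefore lowest in 12Q tumors, and the macrophage sums were above WT in both tumor genotypes. Of 9 macrophage markers edgeR called 6 higher in each tumor genotype against WT, and Cd163 lower in 12Q against WT (log2 fold change -6.53). Endothelial markers summed to 245 and 224 CPM in 12Q tumors, 126 and 122 CPM in 48Q tumors, and 77.0 and 102 CPM in WT prostate. Of these 8 markers, edgeR called 4 higher in 12Q against WT and 1 higher in 48Q against WT. Emcn went the other way and was called lower in both, with log2 fold changes of -1.82 and -2.29. These shifts run alongside every comparison of the glycolytic genes, and their part in the results was not tested.

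**Figure D3:**
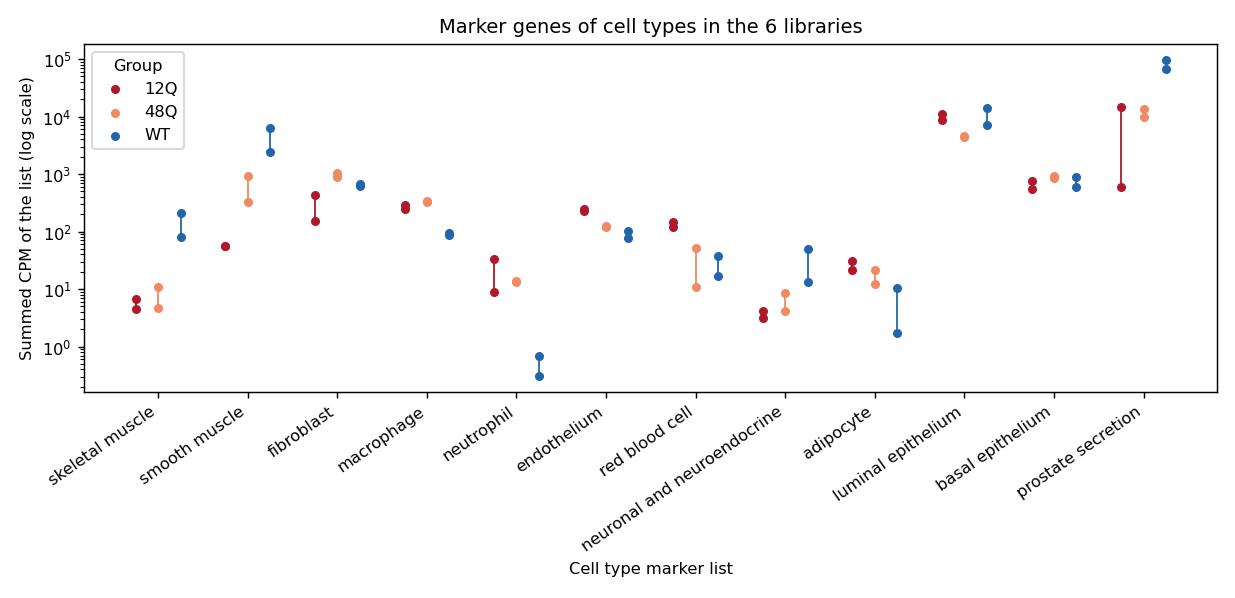
Summed CPM on a log axis (y) of the marker genes of 12 cell type lists (x) in each library. Points are single libraries and lines join the 2 libraries of a group. Smooth muscle lies lowest in 12Q (56.5 and 56.5 CPM) and macrophage sums lie above WT in 12Q (251 and 286 CPM) and 48Q (339 and 331 CPM).

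The widest change of any member was in Slc16a3 (MCT4), the monocarboxylate transporter known for exporting lactate from glycolytic cells, at chr11:120948484-120959000 in mm10. It had 64.0 and 147 CPM in 12Q tumors, 4.24 and 5.05 CPM in 48Q tumors, and 0.522 and 0.575 CPM in WT prostate. All 3 groups stood apart, in the order 12Q, 48Q, WT, and the WT libraries held 10 and 13 counts. The log2 fold change was 7.57 ± 0.56 (SE) in 12Q against WT with an edgeR adjusted p of 0.00270, 3.07 ± 0.49 in 48Q against WT with an edgeR adjusted p of 0.0297, and 4.50 ± 0.46 in 12Q against 48Q with an edgeR adjusted p of 0.0165. The 48Q call was lost when either 48Q or either WT library was left out, with log2 fold changes of 2.94 to 3.19. Fewer of all genes were called higher in those fits too. The related transporter Slc16a1 (MCT1), which carries lactate in either direction along its gradient, had 17.0 and 96.6 CPM in 12Q tumors, 23.1 and 19.3 CPM in 48Q tumors and 23.1 and 13.3 CPM in WT prostate. Its 12Q libraries lay on both sides of the 48Q libraries, and the first 12Q library lay within the WT range. The Slc16a1 log2 fold changes of 1.64 for 12Q over WT and 1.42 for 12Q over 48Q had edgeR adjusted p-values of 0.164 and 0.279. Without the second 12Q library these became -0.09 and -0.31.

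Per kilobase of the gene length in the deposited table, Slc16a3 made up 86.6% and 72.4% of the 2 transporters in 12Q tumors, 24.0% and 31.0% in 48Q tumors, and 3.74% and 6.94% in WT prostate. Slc16a1 was the main transporter in the other groups and Slc16a3 in the 12Q tumors, and this was the widest shift of any isozyme share in percentage points. With 2 libraries against 2, an exact permutation test cannot give a p below 0.333, so isozyme shares are described without a test.

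The promoters of these transporters, 250 bases before to 50 bases after the start (RefSeq, GRCm38.p6), are shown because the transporters diverge in the same samples. Capitals mark ACGTG and GCGTG, the core letters to which hypoxia-inducible factors are known to bind, on either strand, so that CACGT and CACGC are their reverse forms. CACGTG, an E-box, holds ACGTG on both strands and is counted on each.
Slc16a3, chr11:120948817-120949116, plus strand: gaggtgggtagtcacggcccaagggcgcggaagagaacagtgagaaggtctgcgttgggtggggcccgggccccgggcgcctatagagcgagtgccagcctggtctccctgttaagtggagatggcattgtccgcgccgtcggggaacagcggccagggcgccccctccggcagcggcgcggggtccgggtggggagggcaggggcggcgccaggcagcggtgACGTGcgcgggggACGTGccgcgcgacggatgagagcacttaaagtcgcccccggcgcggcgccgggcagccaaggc
Slc16a1, chr3:104638414-104638713, plus strand: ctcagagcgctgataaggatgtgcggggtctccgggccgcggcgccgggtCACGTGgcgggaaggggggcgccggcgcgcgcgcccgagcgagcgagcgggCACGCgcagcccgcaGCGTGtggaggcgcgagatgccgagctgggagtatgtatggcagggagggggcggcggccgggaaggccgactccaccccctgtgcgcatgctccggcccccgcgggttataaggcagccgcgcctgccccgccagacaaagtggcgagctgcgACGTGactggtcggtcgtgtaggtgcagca
The Slc16a3 window held 2 of these motifs and the Slc16a1 window held 5, of which 1 E-box counts as a pair. The Slc16a3 window starts from a RefSeq start 583 bases from the 5′ end of the gene in the deposited table.

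Of the 33 members with a promoter window, 24 (72.7%) held ACGTG or GCGTG, beside 50.2% of 17453 genes of the table with a window. Among the 12 members called higher in 12Q against 48Q the count was 8 (66.7%), and among the 20 other tested members with a window it was 16 (80.0%). The median GC content of the windows was 60.7% for the members and 56.7% for all genes, and these motifs contain CG. CACGTG stood in 4 of 33 windows (12.1%), beside 8.21% of all. CTTTGAA or CTTTGAT, the letters bound by TCF/LEF factors of the β-catenin pathway, stood in 0 of 33 windows, beside 7.84% of all. These are matches of letters in a fixed window and say nothing of binding.

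Monocarboxylate transporters reach the membrane only with a partner protein. Bsg (basigin), the partner of both transporters above, had 1486 and 1670 CPM in 12Q tumors, 551 and 557 CPM in 48Q tumors, and 350 and 341 CPM in WT prostate. Its groups also stood apart in the order 12Q, 48Q, WT. The log2 fold change was 2.19 ± 0.30 for 12Q over WT and 1.51 ± 0.30 for 12Q over 48Q, with edgeR adjusted p-values of 0.00775 and 0.0480. Emb (embigin), another partner of Slc16a1, rose in both tumor genotypes by the edgeR test. It had 22.4 and 13.96 CPM in 12Q tumors, 19.7 and 17.9 CPM in 48Q tumors, and 3.44 and 4.64 CPM in WT prostate. The transporter Slc16a7 (MCT2) was the third tested gene of this list and was not called by edgeR or DESeq2 in any comparison.

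Glucose enters through facilitative transporters. Slc2a1 (GLUT1), the most widespread of them, had 83.5 and 156 CPM in 12Q tumors, 30.4 and 26.3 CPM in 48Q tumors, and 87.4 and 46.2 CPM in WT prostate. The 12Q libraries overlapped WT and lay above 48Q, with a log2 fold change of 2.08 ± 0.43 over 48Q and an edgeR adjusted p of 0.0525, just outside the threshold. Slc2a3 (GLUT3), a high-affinity transporter known from neurons and white blood cells, had 1.22 and 1.73 CPM in 12Q tumors, 10.96 and 9.07 CPM in 48Q tumors, and 1.72 and 4.55 CPM in WT prostate. It was highest in both 48Q libraries, and the log2 fold change of 12Q over 48Q was -2.76 ± 0.61 with an edgeR adjusted p of 0.0585. DESeq2 called both genes in 12Q against 48Q, Slc2a1 as higher and Slc2a3 as lower. It also called Slc2a3 higher in 48Q against WT, where the edgeR adjusted p was 0.145. Per length, Slc2a3 made up 0.574% and 0.436% of this pair in 12Q tumors, 12.5% and 12.0% in 48Q tumors, and 0.772% and 3.75% in WT prostate.

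Of 9 other tested genes for glucose entry and phosphorylation, edgeR called 1 higher and 1 lower in 12Q against WT. Over all tested genes the shares in that comparison were 11.2% higher and 11.2% lower. None of the 9 was called by edgeR in the other comparisons. In 48Q against WT, 1 was higher at an unadjusted p under 0.05 and DESeq2 called 0. In 12Q against 48Q, 1 was higher and 1 lower both at an unadjusted p under 0.05 and by DESeq2. Slc2a12 (GLUT12) averaged 25.2 ± 4.19 CPM in 12Q tumors and 2.38 ± 1.52 CPM in WT prostate (SD, n = 2 each), a log2 fold change of 3.40 with an edgeR adjusted p of 0.0115. Slc5a1 (SGLT1), which carries glucose together with sodium, averaged 30.6 ± 15.5 CPM in 12Q tumors and 105 ± 33.7 CPM in WT prostate (SD, n = 2 each), a log2 fold change of -1.78 with an edgeR adjusted p of 0.0325. Slc2a4, of the same family as Slc2a12, had 0.111 and 0.898 CPM in 12Q tumors and 2.24 and 10.1 CPM in WT prostate. DESeq2 called it lower in 12Q against WT, while its edgeR adjusted p was 0.0838.

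Hexokinases trap glucose in the cell by phosphorylating it. Hk1, the widespread form, had 236 and 271 CPM in 12Q tumors, 98.2 and 101 CPM in 48Q tumors, and 74.9 and 117 CPM in WT prostate. The 12Q libraries were above all others, with a log2 fold change of 1.41 ± 0.28 over WT and an edgeR adjusted p of 0.0193, and of 1.35 ± 0.28 over 48Q and an edgeR adjusted p of 0.0529. Hk2, the inducible form of muscle, fat and many tumors, had 39.8 and 207 CPM in 12Q tumors, 22.6 and 24.8 CPM in 48Q tumors, and 2.87 and 4.996 CPM in WT prostate. The 3 groups did not overlap, although the 12Q libraries differed 5.21-fold between themselves. The log2 fold change of Hk2 was 4.97 ± 0.83 in 12Q against WT with an edgeR adjusted p of 0.0121, and its values of 2.58 for 48Q over WT and 2.38 for 12Q over 48Q had edgeR adjusted p-values of 0.101 and 0.112. DESeq2 called Hk2 higher in those last comparisons as well, and Hk1 higher in 12Q against 48Q. Without the second 12Q library, the Hk2 value was 3.34 for 12Q over WT and 0.76 for 12Q over 48Q.

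Hk2 supplied 18.6% and 49.95% of the per-length hexokinase level in 12Q tumors, 22.5% and 23.9% in 48Q tumors, and 4.97% and 5.49% in WT prostate. Both tumor genotypes lay above WT in that share, and the 12Q and 48Q ranges overlapped. Hk3, a form found mainly in blood cells, had 1.18 and 5.54 CPM in 12Q tumors, 3.46 and 3.19 CPM in 48Q tumors, and 0.104 and 0.486 CPM in WT prostate. Its log2 fold changes over WT of 3.47 for 12Q and 3.45 for 48Q had edgeR adjusted p-values of 0.0560 and 0.103, and the WT libraries held 2 and 11 counts. DESeq2 called both, and without the second 12Q library the 12Q value was 1.96. Neutrophil markers summed to 8.92 and 33.8 CPM in 12Q tumors, 13.3 and 13.9 CPM in 48Q tumors, and 0.678 and 0.310 CPM in WT prostate, and the part of such cells in the Hk3 values was not tested.

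Gpi1, glucose-6-phosphate isomerase, had 433 and 411 CPM in 12Q tumors, 129 and 129 CPM in 48Q tumors, and 159 and 136 CPM in WT prostate. The 12Q libraries stood above all others, with log2 fold changes of 1.52 ± 0.23 over WT and 1.71 ± 0.23 over 48Q at edgeR adjusted p-values of 0.00960 and 0.0246. Phosphofructokinase commits glucose carbon to glycolysis and exists in liver (Pfkl), muscle (Pfkm) and platelet (Pfkp) forms. Pfkl had 231 and 294 CPM in 12Q tumors, 47.5 and 51.8 CPM in 48Q tumors, and 28.1 and 31.6 CPM in WT prostate. Its groups stood apart, and the log2 fold change was 3.14 ± 0.24 for 12Q over WT and 2.40 ± 0.24 for 12Q over 48Q, with edgeR adjusted p-values of 0.00270 and 0.0165. Pfkp had 55.0 and 114 CPM in 12Q tumors, 17.6 and 12.98 CPM in 48Q tumors, and 13.4 and 16.9 CPM in WT prostate, with log2 fold changes of 2.49 over WT and 2.47 over 48Q at edgeR adjusted p-values of 0.0119 and 0.0362. The 48Q and WT libraries of Pfkp overlapped.

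Pfkm went the other way in its values, with 25.3 and 18.3 CPM in 12Q tumors, 21.2 and 16.1 CPM in 48Q tumors, and 35.7 and 47.3 CPM in WT prostate. Both tumor genotypes lay below WT, and the log2 fold change of -1.15 in 48Q against WT had an edgeR adjusted p of 0.0823. DESeq2 called Pfkm lower in both tumor genotypes against WT. Per length, Pfkm was a minor form of the step in 12Q tumors and the main form in WT prostate, at 10.1% and 5.46% in 12Q tumors, 29.5% and 24.0% in 48Q tumors, and 52.9% and 56.1% in WT prostate. Pfkl took the converse course, at 75.4% and 72.0% in 12Q tumors, 54.2% and 63.2% in 48Q tumors, and 34.04% and 30.7% in WT prostate. The 3 groups did not overlap in either share. Pfkm is the form of muscle cells. Skeletal muscle markers summed to 6.85 and 4.46 CPM in 12Q tumors, 10.8 and 4.65 CPM in 48Q tumors and 79.3 and 211 CPM in WT prostate. The WT sums came mostly from Acta1 (70.4 and 193 CPM). Of the 6 tested, edgeR called 3 lower in 12Q against WT, beside 11.2% of all tested genes. Mylpf lay above WT instead, at 5.92 and 1.89 CPM in 12Q tumors beside 0.939 and 1.19 CPM in WT prostate. The smooth muscle sums above run the same way as the skeletal muscle sums. The part of muscle cells in the Pfkm values was not tested.

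**Figure D4:**
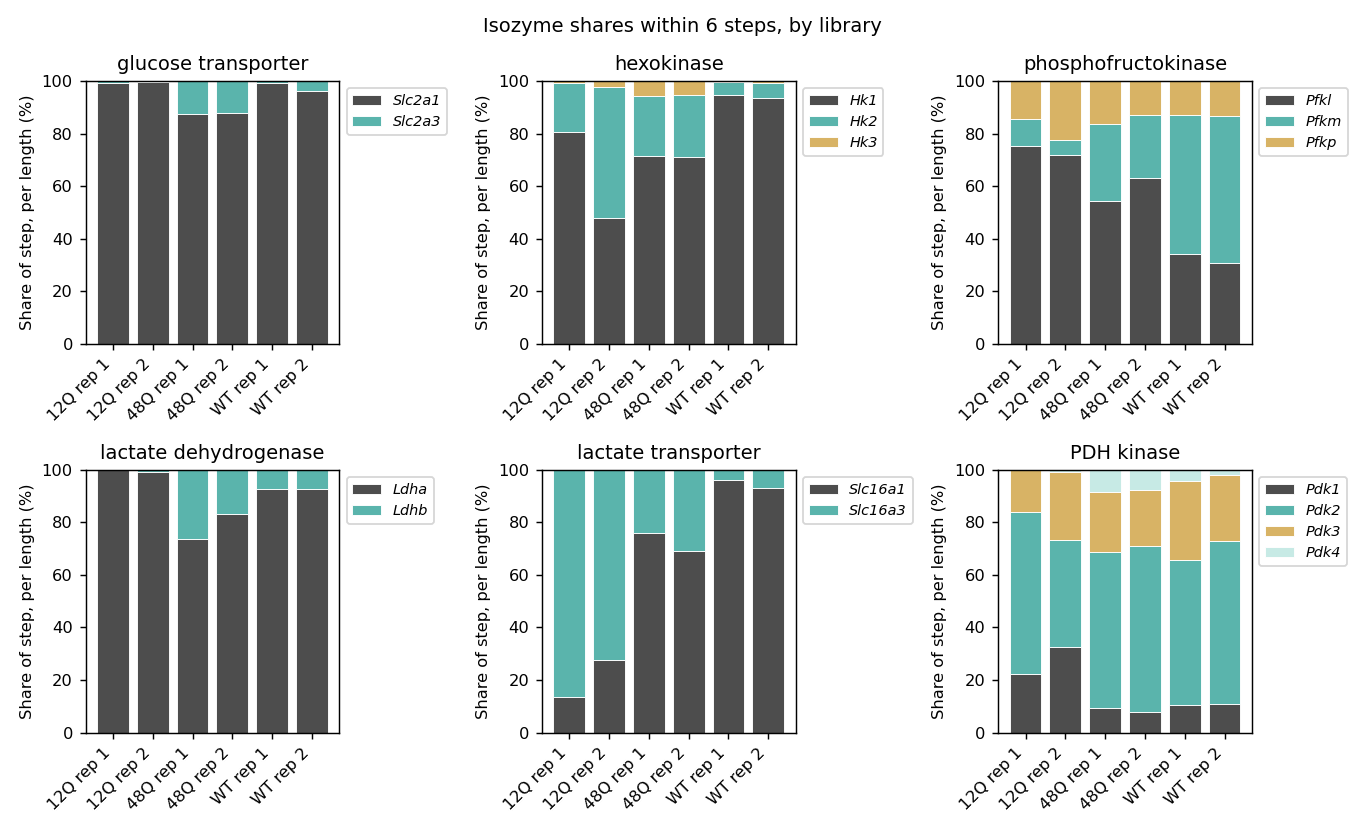
Share (y axis, percent of the step's summed CPM per kilobase) of each isozyme in 6 steps for the 6 libraries (x axis). Each bar is 1 library. Slc16a3 fills 86.6% and 72.4% of the lactate transporter bars in 12Q against 24.0% and 31.0% in 48Q and 3.74% and 6.94% in WT, and Pfkm fills 10.1% and 5.46% of the phosphofructokinase bars in 12Q, against 52.9% and 56.1% in WT.

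The PFKFB enzymes make and remove fructose-2,6-bisphosphate, the strongest activator of phosphofructokinase. Pfkfb3, the form with the highest kinase activity, had 37.8 and 213 CPM in 12Q tumors, 25.8 and 21.7 CPM in 48Q tumors, and 8.09 and 13.6 CPM in WT prostate. The groups did not overlap, the 12Q libraries differed 5.65-fold between themselves, and the log2 fold change over WT was 3.53 ± 0.80 with an edgeR adjusted p of 0.0281. Without the second 12Q library it was 1.80. In 12Q against 48Q, Pfkfb3 was called higher by DESeq2 and not by edgeR. edgeR called none of the other 3 in any comparison, and DESeq2 called Pfkfb4 lower in 12Q against WT. Pfkfb2, the heart form, ranged from 151 to 401 CPM over the 6 libraries and Pfkfb4 from 22.8 to 84.2 CPM, and Pfkfb1, the liver and muscle form, stayed between 0.574 and 1.37 CPM. Pfkfb4 lay below WT in both tumor genotypes, with log2 fold changes of -1.17 for 12Q and -1.13 for 48Q at edgeR adjusted p-values of 0.0801 and 0.146.

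Aldolase splits fructose-1,6-bisphosphate into the triose phosphates. Aldoa, the widespread form at chr7:126795234-126800447 in mm10, had the highest counted level per length of the called members in the 12Q tumors (657 and 640 CPM per kb). Its promoter window (RefSeq, GRCm38.p6, minus strand) is shown for that reason. The window held none of the motifs searched, so it carries no capitals, and sequence outside the window was not searched.
Aldoa, chr7:126800398-126800697, minus strand: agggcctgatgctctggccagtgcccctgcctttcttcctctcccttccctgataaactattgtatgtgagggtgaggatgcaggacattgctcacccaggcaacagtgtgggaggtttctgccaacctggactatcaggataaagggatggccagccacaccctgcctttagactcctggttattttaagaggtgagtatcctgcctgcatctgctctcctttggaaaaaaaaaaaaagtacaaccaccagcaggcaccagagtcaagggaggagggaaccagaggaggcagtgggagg
Aldoa had 1190 and 1161 CPM in 12Q tumors, 322 and 314 CPM in 48Q tumors, and 397 and 326 CPM in WT prostate. The 12Q libraries were close to each other and above all others, with log2 fold changes of 1.70 ± 0.29 over WT and 1.89 ± 0.29 over 48Q at edgeR adjusted p-values of 0.0120 and 0.0289. Aldoc, the form known from brain, rose alongside it, with 39.4 and 48.6 CPM in 12Q tumors, 11.2 and 8.21 CPM in 48Q tumors, and 12.0 and 9.11 CPM in WT prostate. Its log2 fold changes were 2.06 over WT and 2.18 over 48Q, at edgeR adjusted p-values of 0.00979 and 0.0276. Aldoa supplied 97.4% to 98.4% of the per-length level of the pair in every library, so this step kept its isozyme balance.

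Several steps from triose phosphate to pyruvate followed the same pattern. Tpi1, triose phosphate isomerase, had 786 and 617 CPM in 12Q tumors, 153 and 169 CPM in 48Q tumors, and 227 and 183 CPM in WT prostate. Its log2 fold changes were 1.78 ± 0.28 over WT and 2.12 ± 0.28 over 48Q, at edgeR adjusted p-values of 0.0104 and 0.0246. Pgk1, phosphoglycerate kinase, which makes the first ATP of the pathway, had 37.7 and 52.0 CPM in 12Q tumors, 9.82 and 9.87 CPM in 48Q tumors, and 11.5 and 8.98 CPM in WT prostate. Its log2 fold changes were 2.13 ± 0.30 over WT and 2.19 ± 0.30 over 48Q, at edgeR adjusted p-values of 0.00823 and 0.0253. Pgam1, phosphoglycerate mutase, had 27.4 and 22.8 CPM in 12Q tumors, 7.05 and 7.79 CPM in 48Q tumors, and 8.24 and 7.52 CPM in WT prostate. It rose by 1.67 over WT and 1.76 over 48Q on the log2 scale, at edgeR adjusted p-values of 0.0149 and 0.0370. For all 3 genes both 12Q libraries were above the other 4.

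Gapdh and Eno1, usually among the most abundant transcripts of a cell, were nearly empty in this table. Gapdh held 12 and 78 counts in 12Q libraries, 33 and 32 in 48Q libraries, and 4 and 6 in WT libraries, and Eno1 held 12 and 92, 42 and 68, and 14 and 24 counts in the same order of groups. In the GENCODE M21 annotation, Gapdh has 78 near-identical genes elsewhere in the genome, 75 of them pseudogenes, which cover 88.0% of its transcript, and 3 genes near-identical to Eno1 cover 85.6% of its transcript. Neither gene was called by edgeR or DESeq2 in any comparison, and their levels say little about these steps. Counts of Gpi1, Pgk1, Pgam1, Pkm, Ldha and Ldhb are uncertain for the same kind of reason, with copies covering 43.1% to 76.8% of the transcript, since how reads that map to several places were counted is not given in the sources used here. Without the 8 members that have such copies, 11 were called higher for 12Q over WT and 7 for 12Q over 48Q.

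The other enolases were low and did not follow the pathway. Eno2, the enolase of neurons and neuroendocrine cells, had 1.07 and 1.24 CPM in 12Q tumors, 2.53 and 2.22 CPM in 48Q tumors, and 4.49 and 3.54 CPM in WT prostate. It was lowest in 12Q tumors, and the log2 fold change over WT was -1.79 ± 0.49 with an edgeR adjusted p of 0.0457. That call was lost when any 1 of the 6 libraries was left out, with log2 fold changes from -1.96 to -1.61. Neuronal and neuroendocrine markers summed to 4.11 and 3.10 CPM in 12Q tumors, 8.52 and 4.14 CPM in 48Q tumors, and 13.5 and 49.4 CPM in WT prostate, with the WT sums mostly from Rbfox3, and their part in the Eno2 result was not tested. Eno3, the muscle enolase, ranged from 4.07 to 15.3 CPM, was highest in both 48Q libraries, and was not called by edgeR or DESeq2. Because Eno1 was so poorly counted, no isozyme share is given for enolase.

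Pyruvate kinase makes the last ATP of the pathway. Pkm, the main gene of the step outside liver and red blood cells, had 916 and 1260 CPM in 12Q tumors, 242 and 279 CPM in 48Q tumors, and 210 and 200 CPM in WT prostate. The 3 groups did not overlap, and the log2 fold change was 2.41 ± 0.31 for 12Q over WT and 2.06 ± 0.30 for 12Q over 48Q, with edgeR adjusted p-values of 0.00639 and 0.0279. Gene counts do not separate its PKM1 and PKM2 splice forms. Pklr, the form of liver and red blood cells, had 3.85 and 3.19 CPM in 12Q tumors, 0.903 and 0.713 CPM in 48Q tumors, and 0.157 and 0.0442 CPM in WT prostate. Its groups also stood apart, and the log2 fold change of 5.11 ± 0.77 in 12Q against WT had an edgeR adjusted p of 0.00950, with 3 and 1 counts in the WT libraries. Red blood cell genes summed to 144 and 121 CPM in 12Q tumors, 10.9 and 52.3 CPM in 48Q tumors, and 16.7 and 38.3 CPM in WT prostate, and their part in the Pklr result was not tested. Pkm made up 99.5% to 99.97% of the per-length level of the step over the 6 libraries.

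Lactate dehydrogenase converts pyruvate and lactate into each other, and its A and B subunits are known to favour lactate formation and lactate use. The promoter of Ldha, at chr7:46845804-46855627 in mm10, is shown as the member whose window held the most of the motifs capitalised above, 7 with each of 2 E-boxes counted on both strands (RefSeq, GRCm38.p6).
Ldha, chr7:46845554-46845853, plus strand: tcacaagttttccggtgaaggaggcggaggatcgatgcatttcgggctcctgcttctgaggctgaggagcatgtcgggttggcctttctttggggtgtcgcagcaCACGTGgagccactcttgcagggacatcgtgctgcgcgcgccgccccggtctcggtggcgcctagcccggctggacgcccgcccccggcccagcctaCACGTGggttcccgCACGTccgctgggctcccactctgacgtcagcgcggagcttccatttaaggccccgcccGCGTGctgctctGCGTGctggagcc
Ldha had 917 and 1025 CPM in 12Q tumors, 265 and 290 CPM in 48Q tumors, and 383 and 363 CPM in WT prostate. The 12Q libraries were above all others, with log2 fold changes of 1.38 ± 0.27 over WT and 1.81 ± 0.27 over 48Q at edgeR adjusted p-values of 0.0184 and 0.0289. Ldhb moved the opposite way in its values, with 0.814 and 5.85 CPM in 12Q tumors, 64.4 and 40.0 CPM in 48Q tumors, and 20.9 and 19.9 CPM in WT prostate. The groups did not overlap, in the order 48Q, WT, 12Q, and the 12Q libraries held 22 and 189 counts. The log2 fold change of Ldhb was -2.60 ± 0.82 for 12Q over WT and -3.96 ± 0.86 for 12Q over 48Q, with edgeR adjusted p-values of 0.0658 and 0.0577, both outside the threshold, while DESeq2 called both. Without the first 12Q library these were -1.75 and -3.13, and without the second -4.64 and -5.98.

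Per length, Ldhb supplied 0.131% and 0.839% of lactate dehydrogenase in 12Q tumors, 26.5% and 17.0% in 48Q tumors, and 7.49% and 7.52% in WT prostate. The ratio of Ldha to Ldhb was thus 760 and 118 in 12Q tumors, 2.78 and 4.89 in 48Q tumors, and 12.3 and 12.3 in WT prostate. The 12Q tumors had almost no Ldhb, and the 48Q tumors had a larger share of it than WT.

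Pyruvate dehydrogenase kinases switch off pyruvate dehydrogenase. Pdk1 had 95.4 and 142 CPM in 12Q tumors, 33.4 and 25.3 CPM in 48Q tumors, and 37.97 and 43.7 CPM in WT prostate. The 12Q libraries were above all others, with log2 fold changes of 1.54 ± 0.29 over WT and 2.02 ± 0.29 over 48Q at edgeR adjusted p-values of 0.0161 and 0.0261. Pdk4, the kinase known to be induced by fasting and fatty acids, had 0.148 and 1.61 CPM in 12Q tumors, 14.8 and 12.3 CPM in 48Q tumors, and 7.36 and 4.29 CPM in WT prostate. Its 12Q libraries held 4 and 52 counts and lay below all others, and its log2 fold changes of -2.70 ± 0.95 over WT and -3.93 ± 0.99 over 48Q had edgeR adjusted p-values of 0.0876 and 0.0747. DESeq2 called both as lower. Without the first 12Q library the Pdk4 values were -1.80 and -3.04, and without the second -5.25 and -6.46.

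Pdk2 and Pdk3 were not called by edgeR or DESeq2 in any comparison, with 56.5 to 83.6 CPM and 19.0 to 31.6 CPM over the 6 libraries. Pdk2 was the main kinase per length in every library. Without division by length Pdk1 was the main one in both 12Q libraries, at 48.1% and 61.3% of the step's counts beside 42.2% and 24.4% for Pdk2. Per length, Pdk1 made up 22.3% and 32.5% of the step in 12Q tumors, 9.20% and 7.77% in 48Q tumors, and 10.45% and 10.8% in WT prostate. Pdha1, the subunit that these kinases phosphorylate, had 471 and 364 CPM in 12Q tumors, 328 and 364 CPM in 48Q tumors, and 424 and 350 CPM in WT prostate, and its groups overlapped in every comparison. None of the 9 tested genes of pyruvate entry and the rest of the dehydrogenase complex was called by edgeR or by DESeq2 in any comparison, and none had an unadjusted p under 0.05. The one with the highest CPM, Dld, had 126 and 89.5 CPM in 12Q tumors, 99.9 and 113 CPM in 48Q tumors, and 184 and 123 CPM in WT prostate. Set per length against Pdha1, Pkm was at 1.59 and 2.83 in 12Q tumors, 0.602 and 0.626 in 48Q tumors, and 0.404 and 0.467 in WT prostate.

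Summed per kilobase over the genes of a step, aldolase was the highest step in both 12Q libraries, at 670 and 657 CPM per kb in 12Q tumors, 181 and 176 CPM per kb in 48Q tumors, and 223 and 183 CPM per kb in WT prostate. Triose phosphate isomerase stood at 493 and 387 CPM per kb in 12Q tumors, 96.1 and 106 CPM per kb in 48Q tumors, and 142 and 114 CPM per kb in WT prostate. Lactate dehydrogenase stood at 478 and 538 CPM per kb in 12Q tumors, 188 and 182 CPM per kb in 48Q tumors, and 216 and 204 CPM per kb in WT prostate. All 3 steps were higher in both 12Q libraries than in the other 4, and lactate dehydrogenase was the highest step in both 48Q libraries and in the second WT library. Counts of Gapdh, Eno1, Pkm, Ldha and the other members with near-identical copies are uncertain, so the order of the steps is uncertain too. The kinases of pyruvate dehydrogenase summed to 60.1 and 61.4 CPM per kb in 12Q tumors, 51.0 and 45.8 CPM per kb in 48Q tumors, and 51.0 and 57.1 CPM per kb in WT prostate, so there the makeup changed more than the sum.

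In the pentose phosphate pathway, which draws on glucose-6-phosphate to make NADPH and ribose, 4 of 9 tested genes were higher in 12Q against WT, 1 in 48Q against WT and 0 between the tumor genotypes by edgeR, and none was lower. Of all tested genes edgeR called 11.2%, 3.95% and 1.01% higher in the same order, and 11.2%, 1.23% and 3.16% lower. Between the tumor genotypes 5 of the 9 were higher at an unadjusted p under 0.05 and DESeq2 called 3, beside 10.4% and 5.84% of all genes. Tkt, transketolase, averaged 457 ± 72.3 CPM in 12Q tumors, 205 ± 17.9 CPM in 48Q tumors, and 138 ± 17.4 CPM in WT prostate (SD, n = 2 each), and its log2 fold change of 12Q over WT was 1.72 with an edgeR adjusted p of 0.00961. Prps2, which makes the ribose donor for nucleotides, was higher than WT in 12Q by 2.03 and in 48Q by 1.55 on the log2 scale, at edgeR adjusted p-values of 0.00733 and 0.0341. Pgd and Pgls, enzymes of the oxidative branch, were higher in 12Q against WT by 0.96 and 1.05.

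Among 6 tested genes of gluconeogenesis, the reverse pathway, Fbp1 was higher in both tumor genotypes. This fructose-1,6-bisphosphatase opposes phosphofructokinase, and it had 293 and 222 CPM in 12Q tumors, 176 and 259 CPM in 48Q tumors, and 5.06 and 22.5 CPM in WT prostate. Its log2 fold change was 4.22 ± 0.72 in 12Q and 3.98 ± 0.71 in 48Q against WT, with edgeR adjusted p-values of 0.0127 and 0.0369. Pcx, pyruvate carboxylase, was higher in 12Q against 48Q by 1.31 (edgeR adjusted p of 0.0336). edgeR called no other gene of this list. DESeq2 also called Fbp2, another fructose-1,6-bisphosphatase, higher in 12Q against WT and Pcx lower in 48Q against WT.

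Of 6 tested other isozymes and side steps, 3 were higher in 12Q against WT, beside 11.2% of all tested genes. Ldhd, a mitochondrial D-lactate dehydrogenase, was higher by 2.64 on the log2 scale, Tigar, which lowers fructose-2,6-bisphosphate, by 1.67 and Minpp1, an inositol phosphate phosphatase, by 1.15, at edgeR adjusted p-values of 0.00961, 0.0253 and 0.0298. In glycogen metabolism, 1 of 10 was lower in 12Q against WT and 1 of 10 higher in 12Q against 48Q, beside 11.2% and 1.01% of all tested genes. The lower one was Pygm, the muscle glycogen phosphorylase, at 0.222 and 0.217 CPM in 12Q tumors and 2.45 and 12.7 CPM in WT prostate (log2 fold change -5.09, edgeR adjusted p of 0.0191). It followed the muscle marker sums given above, whose part was not tested, and the higher one was Pgm2, a phosphoglucomutase, at 1.5 (edgeR adjusted p of 0.0391).

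Of 11 transcription regulators of glycolysis, 1 was higher and 1 lower in 12Q against WT by edgeR, beside 11.2% of all tested genes in each direction. Myc, an activator of many glycolytic genes, had 157 and 171 CPM in 12Q tumors, 91.4 and 84.1 CPM in 48Q tumors, and 77.1 and 71.5 CPM in WT prostate. Its log2 fold change of 12Q over WT was 1.14 ± 0.20 with an edgeR adjusted p of 0.0144. Esrrg, an orphan nuclear receptor of oxidative tissues, was lower in 12Q against WT by the same test (log2 fold change -1.94, edgeR adjusted p of 0.00963). edgeR called 0 of the 11 in the other comparisons, beside 1.01% to 3.95% of all genes by direction. In 48Q against WT, 2 were higher and 1 lower at an unadjusted p under 0.05, and DESeq2 called 1 in each direction. Of all genes, 14.9% were higher and 9.99% lower at that p, and DESeq2 called 10% and 6.05%. In 12Q against 48Q, 1 was higher both at an unadjusted p under 0.05 and by DESeq2, beside 10.4% and 5.84% of all genes.

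The calls between the tumor genotypes rest on few libraries. With the first 12Q library left out, 6 of the 12 members called higher in 12Q against 48Q were still called, with the second 12Q library left out 2, with the first 48Q library left out 0 and with the second 48Q library left out 1. Leaving out either WT library kept 11 of the 12. The log2 fold changes stayed between 1.65 and 5.01 in all of these fits, and a group of 1 library is then assumed to vary like the others. In the fit without the first 48Q library, edgeR called 1 gene of all higher in 12Q against 48Q. Slc16a3 was lost only without the first 48Q library, at an edgeR adjusted p of 0.0816, and Pfkl only without either 48Q library. Of the 17 members called in 12Q against WT, 12 to 16 were still called in each fit with a library left out, and 8 were called in every one (Slc16a3, Pfkl, Pkm, Pklr, Pgk1, Tpi1, Gpi1 and Aldoc). Aldoa and Ldha lost the call without either 48Q library, Hk1 without either 48Q library or the second 12Q library, and Pgam1 without the second 48Q library. Hk2 and Pfkfb3 lost it without either WT library, Pdk1 and Pfkp without the first WT library, and Eno2 in every fit. Their log2 fold changes over WT then kept their sign, at 1.13 to 1.76 for Hk1, 3.34 to 5.76 for Hk2 and 1.8 to 4.35 for Pfkfb3 over the 6 fits.

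**Figure D5:**
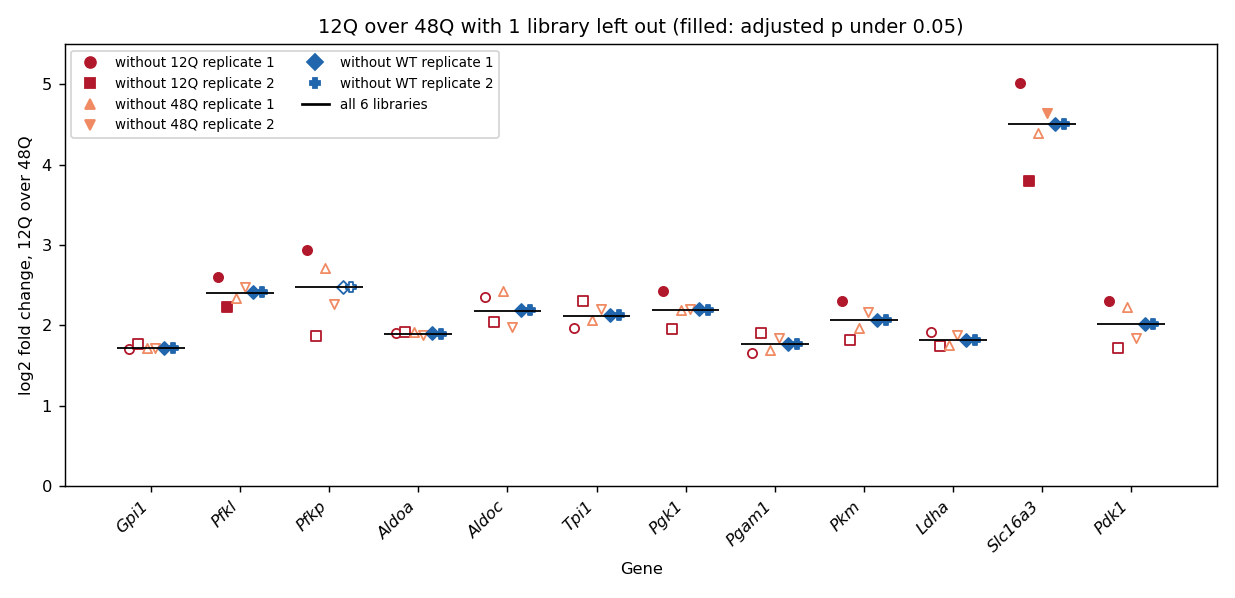
Log2 fold change of 12Q over 48Q (y axis) for the 12 genes called higher (x axis), with all 6 libraries (black lines) and with each library left out in turn (symbols, filled where the adjusted p is under 0.05). The symbols span 1.65 to 5.01, and of those for fits without a 48Q library 1 is filled.

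The 12Q libraries were less alike than those of the other groups for several members. The second 12Q library exceeded the first 5.69-fold for Slc16a1, 5.65-fold for Pfkfb3, 5.21-fold for Hk2 and 2.30-fold for Slc16a3. Some abundant enzymes were closer, with ratios of the second to the first of 0.976 for Aldoa, 0.949 for Gpi1, 1.12 for Ldha and 1.38 for Pkm. Other enzymes of the pathway were not, with ratios of 2.08 for Pfkp and, at few counts, 5.44 for Gapdh and 6.41 for Eno1. Ldhb and Pdk4, low in both 12Q libraries, were 7.19-fold and 10.9-fold higher in the second. The same libraries also differed in prostate secretion genes, whose sum was 14550 CPM in the first and 607 CPM in the second, and the part of that difference was not tested.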

How the data were processed

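The authors deposited raw read counts per gene for the 6 libraries, with no scaling. The submitters' processing notes name the build mm10 and the tools TopHat2 2.0.14 and HTSeq 0.6.0. Which annotation and strand setting were used, and how multiply mapped reads were counted, is not given in the sources used here. Gene length in kilobases is the authors' own, deposited in the same table. No column was left unmatched to a sample.

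Low genes were dropped with filterByExpr at a minimum count of 10 and a minimum total of 15, and TMM scaling was applied. Differences were tested with the quasi-likelihood F test of edgeR 4.0.16 (R 4.3.3), all 3 groups in 1 model that leaves 3 residual degrees of freedom, with Benjamini and Hochberg adjustment over all 15050 genes and a threshold of 0.05. The common dispersion was 0.143. The code was tested on simulated data. Libraries of a group differed by far more than sampling noise, with a chi-square of 40.1 to 263 per degree of freedom, so they are not copies of 1 library. Each was treated as 1 replicate, though this does not show that they came from separate animals.

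Isozymes and steps were compared per kilobase. Near-identical copies were sought in the GENCODE M21 annotation, at 95% identity over at least 100 bases and 20% of the transcript. Exons of Slc2a1, Hk1, Hk3, Gpi1, Pfkm, Pfkp, Pfkfb1, Pfkfb2, Aldoa, Tpi1, Gapdh, Pkm, Pklr and Pdha1 overlap another M21 gene, so their counts are uncertain where strand was not used. Promoters of 33 members were matched by symbol in RefSeq windows of 300 bases.

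The members, the other lists and the markers were chosen with earlier results of these data known. All 34 members are accounted for. From each other list, called genes with groups that did not overlap are named, at most 4 by adjusted p, or else the gene with the highest CPM. Alternatives were DESeq2 1.42.0 (its size factors within edgeR, and its Wald test), library totals, other filters, a replicate block, fits of only the 2 groups compared, shares without division by length and each library left out. Counting only members without near-identical copies was added after the data were seen.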

Additional observations from a re-analysis of the deposited data

Results flagged for a closer look

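The effects of the tumor genotypes against the same WT libraries differed for 12 members, by the direct edgeR test of 12Q against 48Q over all genes. The log2 fold change of 12Q over 48Q was 4.50 for the lactate exporter Slc16a3, 2.40 for Pfkl and 2.47 for Pfkp. It was 1.89 for Aldoa and 2.18 for Aldoc, the aldolases, and 1.71 for the isomerase Gpi1. In the lower part of the pathway it was 2.12 for Tpi1, 2.19 for Pgk1, 1.76 for Pgam1 and 2.06 for Pkm. At the fate of pyruvate it was 1.81 for Ldha and 2.02 for Pdk1. Both 12Q libraries were above both 48Q libraries for each of these 12, but the 12 were picked by the test on these same libraries, so this adds no support. Groups of 2 libraries are too small to look for single libraries that stand apart.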

How the results depend on the processing

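The 16 members higher in 12Q against WT became 17 with library totals, 17 by DESeq2, 17 with a replicate block, 13 in a fit of only the 2 groups and 12 to 19 with 1 library left out. The 1 lower became 0 with library totals, with no low-count filter, with the replicate block and in the fit of only the 2 groups, 5 by DESeq2, and 0 to 2 with 1 library left out. In 48Q against WT, the 1 higher became 3 with library totals, 5 by DESeq2, 2 with the replicate block, 2 in the fit of only the 2 groups and 0 to 2 with 1 library left out, and the 0 lower became 1 by DESeq2. In 12Q against 48Q, the 12 higher became 7 without members that have near-identical copies, 17 by DESeq2, 11 with the replicate block and 0 to 13 with 1 library left out. The 0 lower became 1 with no low-count filter, 3 by DESeq2, 1 in the fit of only the 2 groups and 0 to 1 with 1 library left out. DESeq2's size factors and a filter of at least 1 CPM in 2 libraries changed none of these counts. The number of all genes called moved between settings too, so counts of members are not directly comparable between them. Genes called higher in 12Q against WT were 1687 in the main fit, 3266 with library totals and 2437 by DESeq2. These numbers were 595, 1921 and 1585 in 48Q against WT, and 152, 62 and 924 in 12Q against 48Q. The fold change of Slc16a1 ran from -0.09 to 2.46 in 12Q against WT and from -0.31 to 2.22 in 12Q against 48Q with 1 library left out, reversed without the second 12Q library. No other fold change of a member that was called or at least 1 on the log2 scale changed sign. The labels do not say whether replicate numbers pair the libraries. Correlations of deviations were 0.0339 for 12Q and 48Q, 0.148 for 12Q and WT, and -0.0946 for 48Q and WT, which cannot exclude pairing. Under the block, Eno2 in 12Q against WT and Pgam1 in 12Q against 48Q lost their calls, with edgeR adjusted p-values of 0.0821 and 0.0510. Hk3 in 12Q against WT and Hk2 in 48Q against WT gained theirs, with edgeR adjusted p-values of 0.0435 and 0.0471. Without division by length, 50 of 87 isozyme shares moved by more than 1 SD between libraries. The causes were not tested. With 2 libraries a group, a biological coefficient of variation of 0.378 and 3 residual degrees of freedom, a p that misses the threshold does not show that values were equal.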
